A study of Mus musculus with 12 samples.

Results

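Mouse CD8+ T cells that had been activated and then held in a gel of rat tail collagen were compared with naive CD8+ T cells that had never been cultured. The comparison takes the 3 libraries titled as day 4 cells in rat tail collagen and the 3 titled as day 0 naive cells, so 6 of the 12 libraries of the series, and it covers every gene. All cells came from spleen and lymph nodes (LNs) of WT male mice, and the sources used here do not give strain or age. Naive cells went straight into lysis on day 0. The day 4 cells were activated for 2 days on plate-bound anti-CD3 with soluble CD28 reagent, expanded for 1 day with rmIL-2, and placed on day 3 for 24 h in RatCol rat tail collagen at 2 mg/mL. Their 3 libraries are called the gel libraries below. The series also holds 3 libraries of cells kept in liquid media over that last day, which are used here to set a level beside the other groups, and 3 of cells in Nutragen bovine collagen. Activation, days in culture, interleukin 2 and the gel all differ between the rat tail collagen and naive groups and cannot be told apart in this comparison, while the difference between rat tail collagen and media bears on the last day alone.

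Naive CD8+ T cells are small, resting lymphocytes that circulate between blood and lymph nodes. They enter nodes with the help of the receptor CCR7, leave along a gradient of sphingosine 1-phosphate, and are kept alive by interleukin 7. A signal through the antigen receptor and CD28 turns them into dividing blasts that burn glucose, make granzymes and switch homing receptors, and some of their descendants settle in tissues as resident memory cells. The title of the series concerns mechanosensing by T cells and the transcriptional program of tissue-resident memory.

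Levels are given in CPM, read counts scaled to library size, on 1 scale for the 12 libraries, as mean ± SD of n = 3 libraries where no single values are given. Changes are log2 fold changes, rat tail collagen minus naive, and a gene was called when the adjusted p over all genes tested was under 0.05. The standard error (SE) given with a change was worked back from the change and its test statistic. For genes near 0 counts in a group it can be too small. Where a second change is given, it is rat tail collagen against media from a fit of the day 4 libraries. Library totals were 32704635 to 52949738 counts in the gel group and 37555066 to 42375778 counts in naive cells. The share of ribosomal RNA genes was 10.96%, 5.03% and 13.2% in rat tail collagen 1, 2 and 3 and 3.96% to 5.67% in naive libraries (exact two-sided permutation p = 0.3, where the smallest p that 3 against 3 allows is 0.1). The share of the nuclear RNA Malat1 was 1.34 ± 0.197% against 0.791 ± 0.0986% (exact p = 0.1). The labels do not say that the libraries of a group came from separate mice or cultures, so p-values measure the spread between these libraries, which may be technical. In bulk RNA, fewer cells of a type and less RNA per cell cannot be told apart. CPM are shares of a library, so a rise or fall in CPM need not be one in the amount per cell.

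The CD8 label held in both groups. Cd8a, one chain of the CD8 coreceptor, was at 956, 977 and 1105 CPM in naive 1 to 3 and at 529, 562 and 665 CPM in rat tail collagen 1 to 3, and Cd8b1, the other chain, at 926 ± 75.4 and 701 ± 51 CPM. Both fell, by 0.79 and 0.40 on the log2 scale. Cd4, the coreceptor of helper cells, was at 8.43, 2.68 and 3.52 CPM in naive and 2.69, 2.33 and 2.17 CPM in rat tail collagen libraries, with no call (adjusted p = 0.0641). It was called lower under other settings, with DESeq2 for example (adjusted p = 0.011), and without naive 1, its highest library, the change was -0.38.

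Of 19449 genes tested, 13988 (71.9%) were called, 7099 higher (36.5%) and 6889 lower (35.4%) in rat tail collagen. At 2-fold or more there were 4305 higher (22.1%) and 2809 lower (14.4%) genes, and at 8-fold or more 1576 and 378. The median change over all genes tested was -0.003. The groups did not overlap for 76.2% of the genes tested, so a call or a gap between the groups was the common state here, and counts of list members are read against these shares. Against media, 11319 of 19392 genes (58.4%) were called for rat tail collagen, 29.7% higher and 28.7% lower.

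**Figure D1:**
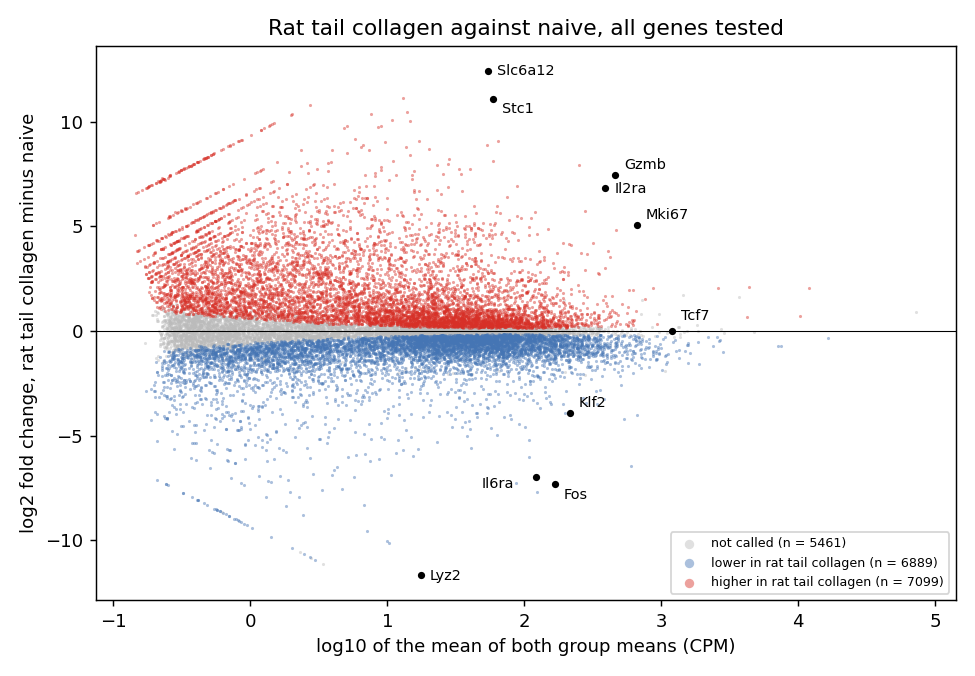
Each point is 1 of the 19449 genes tested, with the log10 of the mean of both group means in CPM on the x axis and the log2 fold change, rat tail collagen minus naive, on the y axis. Red genes were called higher (7099), blue lower (6889) and grey not called (5461). Slc6a12 and Stc1 stand at the top, Lyz2 at the bottom, and Tcf7 near 0 at a high level.

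The largest rises were from near silence, and the top gene was a transporter of osmolytes. Slc6a12 (GRCm38 chromosome 6, 121343076 to 121365775), which encodes the betaine and GABA transporter, was at 0.0262, 0.0262 and 0 CPM in naive 1 to 3 and at 139, 105 and 83.5 CPM in rat tail collagen 1 to 3. All naive libraries were at or near 0 and all gel libraries were far above them. The count ratio of the groups was 6340, with an exact 95% interval from 1750 to 52400, and intervals of such ratios cover counting error only. Stc1 (chromosome 14, 69029238 to 69041804), which encodes the secreted hormone stanniocalcin, went from 0.158, 0 and 0 CPM to 123, 119 and 110.1 CPM (log2 11.09, SE 0.31, adjusted p = 2.75e-08). Its only naive counts were in naive 1, so the size of its fold is poorly bounded (15.25 without naive 1 and 10.48 without naive 3). Tnfrsf11b, the decoy receptor osteoprotegerin, had no counts in naive cells and 4.61, 4.41 and 7.31 CPM in the gel libraries, which makes it at least 206-fold higher at a floor of 3 counts over the group.

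Further rises of this kind, with 1 to 3 naive counts each, were of mixed function. The count ratio was 2960 (531 to 117000) for Accsl, 1740 (312 to 68700) for the tenascin gene Tnn and 1650 (457 to 13700) for Fbxo2, an F-box protein that recognises glycoproteins. It was 1260 (349 to 10400) for Ppp2r2c, a regulatory subunit of protein phosphatase 2A, 1170 (210 to 46300) for Prrg3, 1160 (397 to 5630) for Maats1 and 1120 (201 to 44300) for the proton channel gene Otop1. The lectin-like receptor gene Klrg2 had a ratio of 961 (266 to 7940) and Jam2, a junctional adhesion molecule, of 670 (185 to 5530). Media cells held the 12 genes with the largest rises at low levels as well, with means from 0 CPM for Tnn to 1.93 ± 0.464 CPM for Fbxo2. Antisense or other transcripts overlap Stc1, Ppp2r2c and Maats1 on the opposite strand, and since the strand setting of the counting is not given, their reads cannot be told apart.

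The 12 largest falls included a cytokine receptor, a Notch regulator and the AP-1 gene Fos, which is given with its family below. Il6ra (chromosome 3, 89864059 to 89913196), the interleukin 6 receptor chain, was at 238, 229.6 and 251 CPM in naive and 2.06, 1.68 and 2 CPM in rat tail collagen libraries (log2 -6.98, SE 0.10, adjusted p = 1.08e-10), with 25.4 ± 9.47 CPM in media. Rat tail collagen was below media as well (log2 -3.75, adjusted p = 1.91e-05). Dtx1, a ubiquitin ligase of the Notch pathway, fell from 247 ± 15.5 to 1.2 ± 0.542 CPM (log2 -7.70, SE 0.22), and media cells were at 0.963 ± 0.371 CPM, with no call against them (adjusted p = 0.507). Ifi213, an interferon-inducible gene of the HIN-200 cluster, fell from 174 ± 23.2 to 1.09 ± 0.348 CPM (log2 -7.24). Genes of that cluster are similar in sequence, so its own value is uncertain. Dmrta1, a transcription factor gene, was at 6.88, 7.24 and 5.76 CPM in naive libraries, and in rat tail collagen all 4 of its counts were in library 3.

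The other 7 of the 12 largest falls were genes of macrophages, red cells and B cells, and naive 1 held most of their counts. Lyz2, lysozyme of myeloid cells, was at 60.3, 28.4 and 16.5 CPM in naive 1 to 3 and at 0, 0 and 0.0286 CPM in rat tail collagen (count ratio 4430, 794 to 175000). Vcam1, a vascular adhesion molecule also made by macrophages, was at 50.1, 6.38 and 5.28 CPM, the iron exporter gene Slc40a1 at 33, 5.04 and 4.51, Csf1r at 42.6, 8.13 and 8.46, the complement gene C1qb at 13, 2.44 and 2.24, the carbonic anhydrase gene Car1 at 12.1, 2.91 and 1.5 and Igkc, the kappa light chain, at 32.3, 5.93 and 1.93 CPM in naive 1 to 3. In every one naive 1 was the highest library, and rat tail collagen libraries were at or near 0. The ratios were 1290 (357 to 10700) for Vcam1, 1240 (344 to 10300) for Csf1r and 892 (246 to 7370) for Slc40a1, and C1qb and Car1 were at least 247-fold and 229-fold lower. Without naive 1 the fits gave -8.29 for Vcam1, -8.01 for Slc40a1, -8.81 for Csf1r and -6.57 for Igkc, all called.

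These calls rest on few libraries. Leaving out rat tail collagen 1, 2 or 3 ended the call for Igkc (adjusted p = 0.0625, 0.134 and 0.0823) and for Vcam1 (0.0965, 0.0603 and 0.0665). It ended for Csf1r without rat tail collagen 2 (0.0617) and for Slc40a1 without rat tail collagen 3 (0.0508). For C1qb it ended without naive 2 (0.0762), naive 3 (0.0595), rat tail collagen 1 (0.0598) or rat tail collagen 3 (0.0808). For Car1 it ended without naive 2 (0.102), rat tail collagen 1 (0.0666) or rat tail collagen 3 (0.0875). The call for Lyz2 held in each such fit, with adjusted p up to 0.0311.

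Markers of other cells also differed between the groups, with members of a list going both ways. Of 15 myeloid markers 10 passed the filter on low counts, and 1 was called higher, 6 lower and 3 not. Several, C1qb among them, passed only through their level in naive libraries, so the number lower is not evidence for the list. The same limit applies to the B cell, natural killer and red cell lists below. The summed level of the myeloid markers was 171, 56.9 and 45.1 CPM in naive 1 to 3, 19.9 to 26.5 CPM in rat tail collagen and 10.3 to 10.8 CPM in media. The member called higher was Cd68, a lysosomal protein gene that T cells also express (7.1 ± 1.63 to 18.8 ± 3.87 CPM), while Adgre1, which encodes the macrophage protein F4/80, fell from 10.2, 1.36 and 1.93 CPM to 0.212 ± 0.128 CPM. The call for Adgre1 was lost without rat tail collagen 3 (adjusted p = 0.0738), and without naive 1 its change was -3.04. The defining macrophage genes C1qa and C1qb had no counts in rat tail collagen, where Lyz2 and Csf1r were near 0.

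Of 11 B cell markers 10 were tested, with 1 higher, 8 lower and 1 not called. Cd22, an inhibitory receptor of B cells, fell from 6.83, 5.77 and 4.49 CPM to 0.0599, 0.067 and 0 CPM, and Cd79b, a signalling chain of the B cell receptor, from 15.2 ± 1.79 to 7.48 ± 0.633 CPM. The list's sum nevertheless went from 459 to 519 CPM in naive libraries to 718 to 1046 CPM in rat tail collagen, because Ighm, the IgM constant region, made up nearly all of it and rose from 447 ± 35 to 856 ± 163 CPM (log2 0.94, SE 0.13). Ighm was at 955 ± 64.8 CPM in media. All 4 heavy chain J segment genes tested were called higher, while Pax5, a factor that defines B cells, fell from 0.935 ± 0.267 to 0.0913 ± 0.0508 CPM.

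Among 10 tested markers of natural killer (NK), gamma-delta and CD4 cells, 1 was called higher and 6 lower. The sum of the list was nevertheless 86.6, 46.3 and 50.4 CPM in naive 1 to 3 and 77.8 to 88.8 CPM in rat tail collagen. The NK receptor genes Ncr1 and Klra8 fell from 7.87 ± 3.54 to 0.0666 ± 0.0761 CPM and from 5.06 ± 2.41 to 0.115 ± 0.0836 CPM, and Zbtb7b, which encodes the factor ThPOK, rose from 6.64 ± 2.76 to 53.8 ± 5.04 CPM. Of 9 red cell and platelet markers 6 were tested, 5 of them lower and 1 higher (log2 3.19). The sum of the list was 26.8, 6.61 and 7.04 CPM in naive 1 to 3 against 3.62 to 4.57 CPM in rat tail collagen. Hbb-bs, a beta globin gene, was at 4.23, 0.525 and 0.603 CPM in naive 1 to 3 and at most 0.067 CPM in rat tail collagen, and the platelet gene Ppbp at 4.38, 0.997 and 0.796 and at most 0.239 CPM. Of 11 stromal and endothelial markers 6 were tested, 3 higher and 1 lower. Their sum was 142.1 to 172.5 CPM in naive libraries and 91.1 to 91.7 CPM in rat tail collagen. Pecam1, which T cells also express, fell from 149.7 ± 16 to 70 ± 3.1 CPM, Col1a1 rose from 0.661 ± 0.06 to 4.29 ± 0.535 CPM and Epcam from 1.86 ± 0.225 to 13.9 ± 2.96 CPM, while Col1a2 and Lum were at or near 0 in both groups. What part these other cells have in any change of this comparison was not tested.

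**Figure D2:**
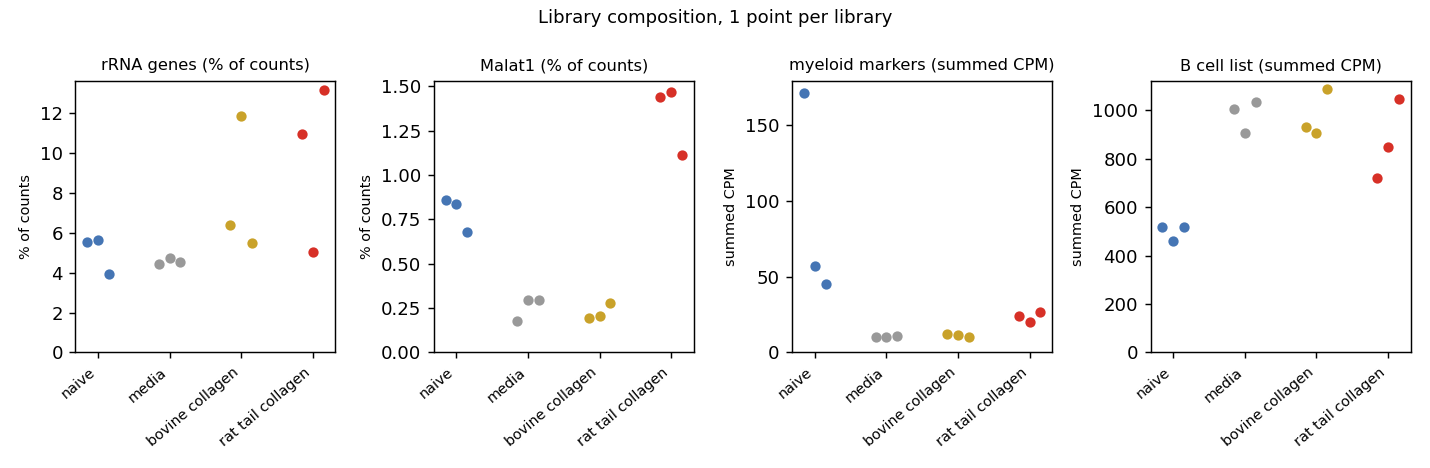
Each point is 1 library. The panels show, from left to right, the share of counts from ribosomal RNA genes, the share from Malat1, the summed CPM of 15 myeloid markers and the summed CPM of 11 B cell markers; naive 1 stands highest in myeloid markers at 171 CPM, and rat tail collagen 1 and 3 highest of these 6 libraries in ribosomal RNA.

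Homing genes of naive cells fell. S1pr1 (chromosome 3, 115710433 to 115715072), the sphingosine 1-phosphate receptor that lets T cells leave lymph nodes, was at 403, 389.7 and 374 CPM in naive 1 to 3 and at 82.8, 95.6 and 98.4 CPM in rat tail collagen 1 to 3 (log2 -2.07, SE 0.08, adjusted p = 1.53e-08). The naive libraries lay close together, above every gel library. Media cells held S1pr1 at 309 ± 16.4 CPM, and rat tail collagen differed from them by log2 -1.75 (adjusted p = 2.04e-08). Klf2, a transcription factor that drives S1pr1, was at 354, 384 and 465 CPM in naive 1 to 3 and at 11.7, 28.5 and 40.1 CPM in rat tail collagen 1 to 3 (log2 -3.90), and media cells lay between at 143 ± 22.9 CPM.

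Ccr7, the lymph node homing receptor, changed far less. It was at 309, 298 and 352 CPM in naive and 209, 253 and 295 CPM in rat tail collagen libraries, a call of log2 -0.33 (adjusted p = 0.0332). The groups did not overlap but lay close, and the call was lost without naive 3 (adjusted p = 0.123), rat tail collagen 1 (-0.19, 0.112) or rat tail collagen 2 (0.0951). Of 23 tested chemokine, sphingosine 1-phosphate and oxysterol receptors, 13 were lower and 5 higher (median -0.978). Gpr183, the oxysterol receptor, fell from 69.7 ± 3.09 to 3.49 ± 1.11 CPM (log2 -4.33), Cxcr4 from 184 ± 51.8 to 35.1 ± 4.99 CPM, S1pr4 from 146 ± 10.6 to 45.9 ± 4.88 CPM and Ccr9, a gut homing receptor, from 132 ± 6.94 to 17.4 ± 3.54 CPM. Ccr9 was lower still in media, at 4.74 ± 2.03 CPM.

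Of 22 naive and stem-like T cell genes, 17 were lower, 3 higher and 2 not called (median -1.23, against -0.003 over all genes). Lef1, a transcription factor of naive and memory cells, was at 406, 411 and 479 CPM in naive and 106, 109 and 93.4 CPM in rat tail collagen libraries (log2 -2.06), and Il7r, the interleukin 7 receptor, at 489 ± 36 and 136 ± 6.01 CPM (log2 -1.84). Both groups of libraries were tight and well apart. Tcf7, which encodes TCF-1 and is the usual partner of Lef1 in naive and stem-like cells, was at 1125, 1099 and 1367 CPM in naive and 1102, 1280 and 1255 CPM in rat tail collagen libraries. These ranges overlapped, and the change was 0.02, SE 0.10 (adjusted p = 0.849), with either sign across the alternatives tried. Il6st, the signalling partner of Il6ra, fell from 481 ± 36.6 to 52.8 ± 8.52 CPM and the factor Ets1 from 1305 ± 102 to 620.4 ± 22.8 CPM. The costimulator Cd28 was among the 3 that rose, from 113 ± 16.8 to 424 ± 41.6 CPM.

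**Figure D3:**
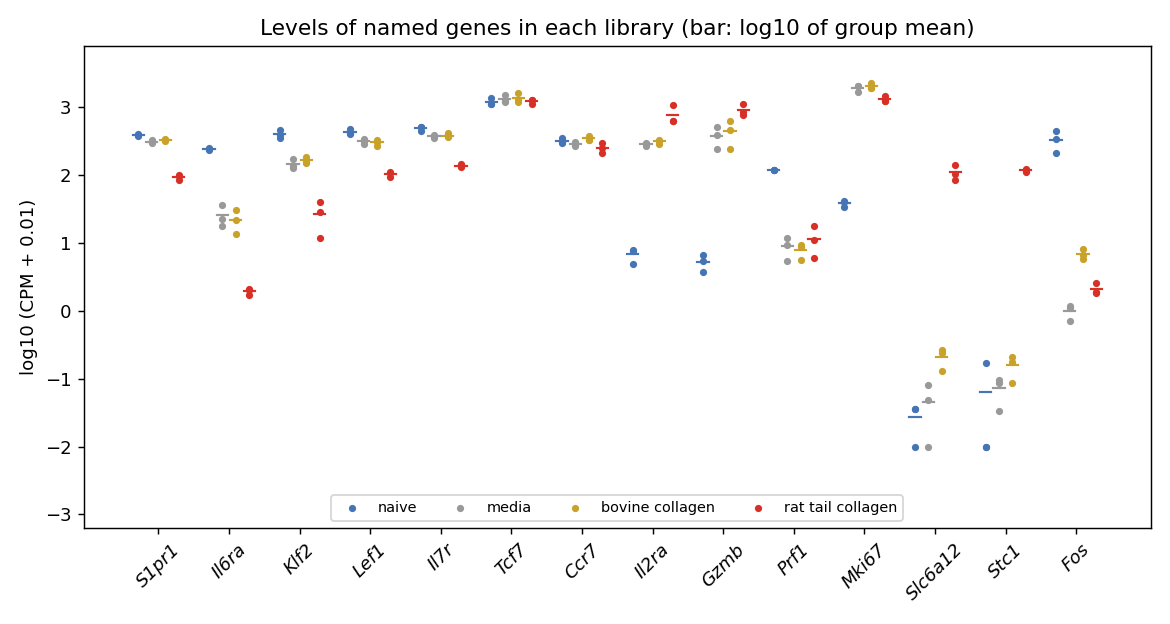
Each point is 1 library of the group given by its colour, the y axis is log10 of CPM plus 0.01, and bars are the log10 of group means; levels should be compared within a gene, since genes differ in length. Il6ra is high in naive cells and lowest in rat tail collagen, Tcf7 is level across the groups, and Fos is far higher in naive cells than in the other groups.

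The series' title names tissue residency, so genes of resident memory cells were read next to naive cells. Of 23 genes that resident memory cells are known to hold at low levels, 20 were lower, none higher and 3 not called (median -2.07). Ripor2, an inhibitor of RhoA, fell from 619 ± 19.1 to 55.3 ± 6.18 CPM (log2 -3.48), Rasgrp2, an activator of Rap1, from 321 ± 11 to 70.1 ± 8.64 CPM, Cmah from 408 ± 19.4 to 98 ± 9.06 CPM and Sidt1 from 348 ± 10.3 to 90.4 ± 4.76 CPM. Against media 15 of the 20 tested were lower and 1 higher. This list shares Klf2, S1pr1, Lef1, Tcf7 and Ccr7, among others, with the naive genes above, so it is not a separate reading of them. It was written with earlier results of these libraries known.

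The 31 genes that resident cells are known to hold at high levels went both ways against naive cells, 12 higher, 11 lower and 8 not called (median 0.363). That is 38.7% higher and 35.5% lower, near the 36.5% and 35.4% of all genes tested. The split is therefore not read as a result about this list. Against media 20 of the 31 were higher and 7 lower, where 29.7% of all genes were higher and 28.7% lower. Markers in common use for residency were lower than in naive cells. Itgae, the CD103 integrin chain that binds E-cadherin, was at 229, 267 and 281 CPM in naive and 56.6, 93.6 and 69.2 CPM in rat tail collagen libraries (log2 -1.82). Cd69, which opposes S1PR1 at the cell surface, was at 182, 182 and 199.7 and 31.4, 27.7 and 38.3 CPM (log2 -2.53), and Cxcr6 at 113 ± 11.8 and 14.2 ± 2.35 CPM (log2 -2.99). For none of them did the groups overlap. Zfp683, which encodes the residency factor Hobit, fell from 5.25 ± 0.548 to 0.979 ± 0.18 CPM, and Rgs10 from 86 ± 5.5 to 26.5 ± 2.36 CPM. Itga1, the CD49a chain that binds collagen, was at 3.31, 2.15 and 1.25 CPM in naive and 3.86, 2.87 and 2.23 CPM in rat tail collagen libraries, with no call (adjusted p = 0.296). It was called higher without naive 1 (0.80, adjusted p = 0.0308) and against media (log2 1.91, adjusted p = 0.000119).

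Among those that rose, Ctla4, a brake on costimulation, rose from 8.74 ± 0.969 to 207 ± 10.6 CPM (log2 4.57), Pdcd1, which encodes PD-1, from 2.47, 2.33 and 2.68 CPM to 27.9, 20.6 and 19 CPM (log2 3.17), Icos from 38.5 ± 4.01 to 203 ± 22.6 CPM and Skil, a TGF-beta feedback gene, from 126 ± 9.37 to 249.9 ± 8.35 CPM. Pdcd1 and Icos were higher than in media (log2 1.38 and log2 0.95), and Ctla4 was lower (log2 -0.28). Without naive 3 the median of this list was 0.12, and without rat tail collagen 1 or 3 it was 0.226 or 0.207. Ctla4 is also on the list of inhibitory receptors, Icos and Cd69 on that of activation receptors and Cxcr6 on that of chemokine receptors. The counts of those lists are not separate readings of these genes.

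Activation receptors and effector genes split. Of 22 activation receptors and costimulators, 13 were higher and 6 lower (median 0.776). Il2ra, the high affinity interleukin 2 receptor chain, was at 7.77, 7.53 and 4.89 CPM in naive and 626, 624 and 1068 CPM in rat tail collagen libraries (log2 6.85), with rat tail collagen 3 the highest, and at 284 ± 15.3 CPM in media (log2 1.44, adjusted p = 3.37e-05). Tnfrsf4, which encodes OX40, rose from 5.15 ± 0.559 to 38.1 ± 3.36 CPM and was at 5.38 ± 0.383 CPM in media. Il2rb rose from 399 ± 21.5 to 721 ± 17.3 CPM. Cd44, a hyaluronan receptor used to mark antigen-experienced cells, rose from 91, 77.6 and 74.3 CPM to 139, 138 and 117 CPM (log2 0.70). Cd5 and Cd6, which dampen signals of the T cell receptor, fell by 1.27 and 1.0 on the log2 scale.

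Cytotoxic granule genes went in both directions, 8 higher and 7 lower of 17 tested (median -0.0786). The median was 0.238 without rat tail collagen 3, -0.375 without rat tail collagen 1 and -0.162 without naive 3. Gzmb (chromosome 14, 56258838 to 56262260), which encodes granzyme B, was at 6.56, 3.67 and 5.33 CPM in naive and 856, 770.4 and 1114 CPM in rat tail collagen libraries (log2 7.46). The gel libraries were also above media (376 ± 136 CPM, log2 1.27, adjusted p = 0.0183). Prf1, the pore protein perforin, went the other way, from 119, 118 and 119.6 CPM to 17.7, 11 and 5.88 CPM (log2 -3.37), and media cells were at 8.82 ± 3.3 CPM, with no call between them and the gel libraries (adjusted p = 0.446). Srgn, the granule proteoglycan, and Stx11, a fusion protein of granules, rose by log2 1.32 and log2 1.87. Nkg7 and the protease gene Ctsw fell by 0.98 and 0.65. Among other granzymes Gzma fell from 20.3 ± 7.78 to 3.8 ± 1.4 CPM and Gzmc rose from 0.346 ± 0.101 to 15.6 ± 8.7 CPM.

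Of 22 tested cytokine and chemokine genes 12 were lower and 5 higher (median -0.78). Ifng was at 4.91, 3.57 and 3.93 CPM in naive and 0.658, 0.536 and 0.314 CPM in rat tail collagen libraries (log2 -3.02). Il10, an anti-inflammatory cytokine, rose from 0.131, 0.0525 and 0.0723 CPM to 7.84, 7.27 and 5.37 CPM (log2 6.28), and Tnfsf11, which encodes RANKL, from 1.54 ± 0.461 to 54.8 ± 8.53 CPM (log2 5.15). Both were above media, by log2 5.50 and log2 3.05. Lif rose from 0.636 ± 0.0362 to 7.6 ± 0.082 CPM, and Ltb, which encodes lymphotoxin beta, fell from 328 ± 18.2 to 97.3 ± 7.39 CPM.

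Inhibitory receptors and the Tox family had 7 higher and 11 lower of 20 (median -0.873). Lag3 rose from 2.29 ± 0.462 to 73.2 ± 13.3 CPM (log2 5.0), while Tox, a factor of exhausted cells, fell from 65.9 ± 7.32 to 15.9 ± 1.3 CPM and Cd96 from 204 ± 9.26 to 66.2 ± 4.25 CPM. Of 28 effector and residency transcription factors 16 were higher and 7 lower (median 0.465). Irf4, induced by the T cell receptor, rose from 13.7, 13.2 and 14.7 CPM to 92.4, 90.3 and 102 CPM (log2 2.78) and was lower than in media (log2 -0.78). Nfil3 rose by log2 2.11 and Hif1a by log2 1.75. Runx1 fell from 61.6, 58.4 and 59.5 CPM to 6.34, 6.62 and 6.31 CPM (log2 -3.21). Prdm1, which encodes Blimp-1, was at 4.67, 3.46 and 4.1 CPM in naive and 11.7, 8.44 and 4.63 CPM in rat tail collagen libraries (log2 1.02, adjusted p = 0.0205). The ranges overlapped, and the call was lost without naive 2 (adjusted p = 0.0748) or naive 3 (0.0713). Myc, a transcription factor gene of cell growth, was at 140.4, 142 and 166 and 128, 132 and 140.3 CPM, with no call (adjusted p = 0.0975) except with the replicate block (0.0382) and with offsets for GC content and length (-0.32, 0.000544).

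Genes of mitosis were almost all higher in rat tail collagen than in naive cells. Of 32 G2 and mitosis genes 31 were called higher, none lower, with a median of 4.66. Mki67, which encodes the proliferation antigen Ki-67, was at 41.8, 39.3 and 34 CPM in naive and 1208, 1457 and 1209 CPM in rat tail collagen libraries (log2 5.08, adjusted p = 8.74e-10). Top2a, topoisomerase II, rose from 32.1 ± 3.79 to 908 ± 106 CPM (log2 4.83), the spindle genes Nusap1 and Kif11 by log2 5.05 and log2 4.96, Bub1b by log2 4.71 and Plk1 by log2 4.18. Cdc20, an activator of the anaphase-promoting complex, was at 7.3, 6.9 and 7.5 CPM and 61.1, 64.4 and 62 CPM. The same list was lower than in media for 31 of 32 genes: Mki67 was at 1915 ± 221 CPM in media (log2 -0.58) and Cdc20 at 149 ± 11.5 CPM (log2 -1.26), so the gel libraries lay between naive and media.

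S phase and nucleotide supply genes had 33 higher of 34, none lower, with a median of 1.95. Mcm10 rose from 2.12 ± 0.371 to 55.6 ± 6.29 CPM (log2 4.72), Tk1, thymidine kinase, from 3.6 ± 0.264 to 75.7 ± 4.47 CPM (log2 4.40), and Rrm2, a subunit of ribonucleotide reductase, from 8.4 ± 0.651 to 172 ± 14.7 CPM (log2 4.36). Mcm6, a subunit of the replicative helicase, was at 94.8, 94.8 and 99.3 CPM in naive and 249.6, 272 and 289 CPM in rat tail collagen libraries (log2 1.49), and Pcna, the sliding clamp, rose by log2 0.68. Tk1 did not pass the test against media (adjusted p = 0.303), and 28 of the 34 were lower there. G1 cyclins and kinases had 9 higher and 3 lower of 14 (median 1.08). Ccne2, cyclin E2, rose from 1.64 ± 0.384 to 30.6 ± 0.767 CPM and E2f2 from 13.7 ± 0.95 to 153 ± 10.5 CPM, while Ccnd2, cyclin D2, fell from 824, 819 and 786 CPM to 222, 222 and 229 CPM (log2 -1.85).

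Promoters of these lists were read for motifs known from cell cycle genes, to show the sequence in front of genes that moved together. The windows are RefSeq's on GRCm38.p6, from 250 bases before to 50 after the start, and both strands were searched. The cell cycle homology region TTTGAA was found in 18 of 26 G2 and mitosis genes with a window (69.2%) and in 14.9% of the 11255 tested genes with one. The CCAAT box was found in 20 of 26 (76.9%) and 43% of all, and both together in 16 (61.5%) and 6.33%. An E2F site, TTTGGCGC or TTTCCCGC, was found in 10 of 29 S phase genes (34.5%) and 3.33% of all. These matches are a description of the letters, not of binding. The 250 bases before the start are shown for Cdc20 (chr4:118437344-118437593, minus strand), Kif11 (chr19:37376132-37376381, plus strand) and Mcm6 (chr1:128359706-128359955, minus strand), whose levels are given above. Capitals mark TTTGAA and CCAAT in Cdc20, their reverse complements in Kif11, and TTTGGCGC in Mcm6.
Cdc20: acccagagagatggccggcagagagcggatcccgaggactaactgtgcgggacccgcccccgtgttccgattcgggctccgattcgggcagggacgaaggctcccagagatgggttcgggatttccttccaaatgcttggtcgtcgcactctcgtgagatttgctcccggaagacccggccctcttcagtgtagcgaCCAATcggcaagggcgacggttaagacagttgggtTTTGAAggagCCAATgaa
Kif11: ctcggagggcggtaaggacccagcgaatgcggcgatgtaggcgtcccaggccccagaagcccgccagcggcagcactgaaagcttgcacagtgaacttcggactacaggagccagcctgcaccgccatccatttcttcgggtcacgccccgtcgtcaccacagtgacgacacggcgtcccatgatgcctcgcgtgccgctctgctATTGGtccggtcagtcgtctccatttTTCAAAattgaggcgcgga
Mcm6: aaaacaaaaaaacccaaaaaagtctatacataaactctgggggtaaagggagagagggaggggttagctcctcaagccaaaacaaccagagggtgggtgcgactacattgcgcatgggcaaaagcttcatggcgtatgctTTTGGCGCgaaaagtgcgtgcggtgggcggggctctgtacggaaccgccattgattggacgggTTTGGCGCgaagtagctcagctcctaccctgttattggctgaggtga
In Cdc20 and Kif11 the TTTGAA motif lies close to the start with a CCAAT box further upstream, and Cdc20 has a further CCAAT box beside the start.

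Type I interferon-stimulated genes were mostly lower. Of 30 tested, 24 were lower, 2 higher and 4 not called, with a median of -1.63. Ifit3, an antiviral effector gene, was at 34.6, 36.3 and 26.8 CPM in naive and 0.628, 0.637 and 0.714 CPM in rat tail collagen libraries (log2 -5.62, adjusted p = 1.94e-09). Rtp4 was at 29.9, 34.5 and 26.2 and 0.509, 0.486 and 0.457 CPM (log2 -5.95), and Oas2, a sensor of double-stranded RNA, at 13 ± 2.45 and 0.415 ± 0.0647 CPM. Every naive library was above every gel library for all of them, and naive 3 was the lowest naive library. Media cells lay between for Ifit3 (4.24 ± 1.66 CPM) and Rtp4 (9.58 ± 2.25 CPM), and both were lower in rat tail collagen than in media (log2 -2.69 and log2 -4.31). Ddx58, which encodes the sensor RIG-I, fell by 1.36 and Parp14 by 1.18. Ifi27 went against the list and rose from 61.2 ± 4.57 to 222 ± 43.8 CPM (log2 1.86). Ifit3 and its neighbour Ifit3b are near-identical copies, so reads can be split between them, and Ifit3b fell by 5.86.

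The interferon-stimulated response element, searched as TTTCNNTTTC on both strands, was found in 12 of 21 interferon genes with a promoter window (57.1%) and in 3.75% of the 11255 tested genes. The 250 bases before the start of Ifit3 (chr19:34583279-34583528, plus strand) are shown because it is among the largest falls of the list, and capitals mark its pair of matches.
Ifit3: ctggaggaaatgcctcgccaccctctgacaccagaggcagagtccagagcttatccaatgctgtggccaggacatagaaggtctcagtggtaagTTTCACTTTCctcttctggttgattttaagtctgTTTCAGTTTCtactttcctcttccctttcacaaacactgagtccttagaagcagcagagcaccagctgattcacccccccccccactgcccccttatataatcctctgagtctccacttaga

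MHC class I and peptide loading genes fell beside them, 13 lower and 3 higher of 16 (median -0.944). H2-K1, a classical class I heavy chain, was at 2723, 2702 and 3031 CPM in naive and 896, 1011 and 933 CPM in rat tail collagen libraries (log2 -1.57). H2-D1 fell from 1772 ± 142 to 930.5 ± 57.3 CPM, B2m, the shared light chain, from 887 ± 186 to 341 ± 45.1 CPM, and H2-Q7, a non-classical gene with close copies, from 771 ± 32.4 to 201 ± 27.4 CPM. Media cells were between for these genes, with H2-K1 at 1504 ± 132 CPM. Of 15 GIMAP and Schlafen genes, lymphocyte GTPases and growth regulators, 8 were lower and 1 higher (median -0.246). Gimap3 fell from 605 ± 19.1 to 251 ± 5.52 CPM and Slfn8 from 164 ± 14 to 17.2 ± 3.86 CPM, while Slfn3 rose from 4.17 ± 0.341 to 13.7 ± 0.602 CPM.

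**Figure D4:**
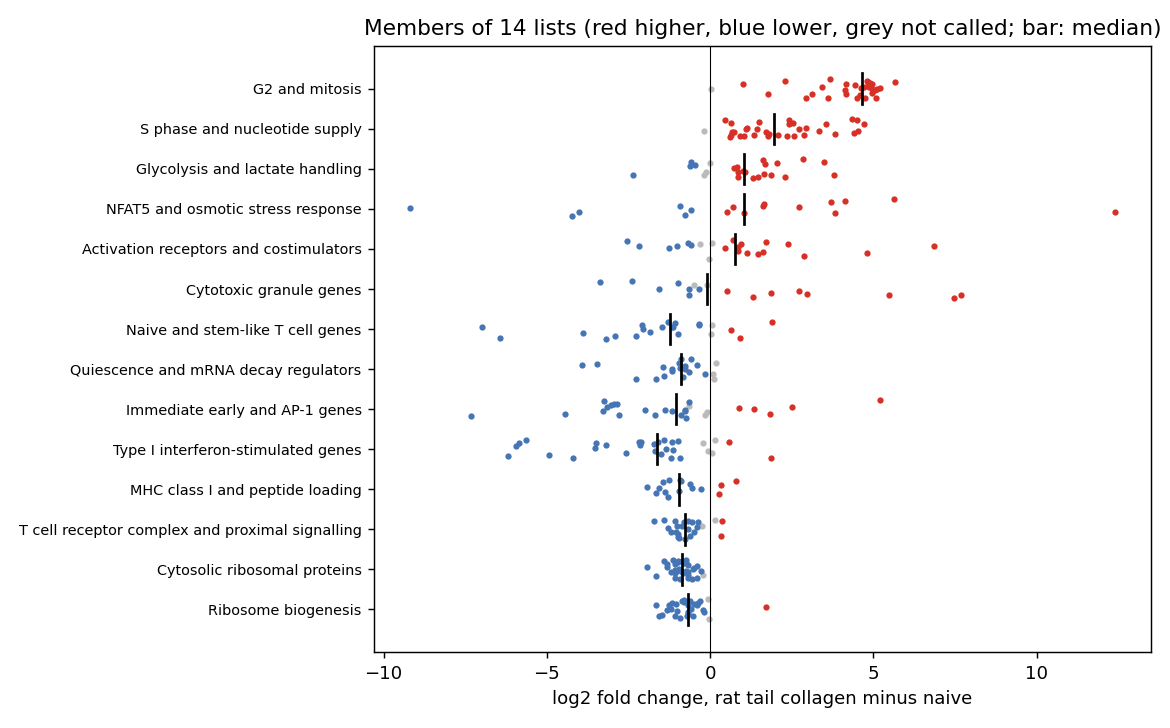
Each point is a tested member of the list named at the left, placed by its log2 fold change, rat tail collagen minus naive, and black bars are list medians. G2 and mitosis genes lie to the right around 4.66, interferon-stimulated genes mostly to the left around -1.63, and ribosomal protein genes in a narrow band around -0.854.

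The T cell receptor and its proximal signalling genes were lower. Of 24 tested, 20 were lower, 2 higher and 2 not called (median -0.781). Cd3e, a signalling chain of the receptor, was at 362, 319.9 and 480.3 CPM in naive and 192, 187 and 202 CPM in rat tail collagen libraries (log2 -1.0), with media at 191 ± 8.28 CPM and no call between those (adjusted p = 0.939). Prkcq, the kinase PKC theta, fell from 454 ± 31.2 to 136 ± 7.9 CPM, Lat from 379 ± 29.2 to 178 ± 16.5 CPM, Ubash3a from 176 ± 7.62 to 66.8 ± 6.85 CPM and Ptprc, which encodes CD45, from 2189 ± 164 to 1057 ± 181 CPM.

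The gene segments of the receptor itself fell as a class. Of 134 V segment genes tested 128 were lower and none higher, with a median of -1.35. All 63 J segment genes (median -1.03) and all 4 constant region genes tested were lower. Summed V segment levels were 630.5, 665.4 and 737.8 CPM in naive 1 to 3, 335.4, 353.5 and 361.1 CPM in rat tail collagen, and 615.6 to 705.4 CPM in media. The gel libraries thus held less V segment RNA than every naive and media library. The median change was -1.4 over 106 alpha chain V genes (Trav) and -0.809 over 22 beta chain V genes (Trbv). Segments are short and similar to each other, so reads can be split between them and single members were not read. Trac, the alpha constant region, fell from 562 ± 85.3 to 244 ± 18.2 CPM (log2 -1.20).

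Genes that make the ribosome were lower, almost to the last member. Of 36 tested, 35 were lower and none higher, with a median of -0.854. Among the abundant ones, Rpl4 was at 2671, 2855 and 3333 CPM in naive and 1727, 1802 and 1817 CPM in rat tail collagen libraries (log2 -0.72), Rps3 fell by 0.67 and Rplp0 by 0.51. The largest fall was of Rps27 (216 ± 21.7 to 55.9 ± 1.35 CPM, log2 -1.94), and Rpl30 fell from 372 ± 37.6 to 140.2 ± 0.906 CPM. A pair of abundant translation genes also fell: Eef1a1, an elongation factor, fell from 8800 ± 956 to 5383 ± 114 CPM and Rack1, a ribosome-bound scaffold, from 1868 ± 222 to 1269 ± 36.6 CPM. Ribosomal protein genes have many processed copies in the genome, and 20.9% of processed pseudogenes tested were called higher and 36.9% lower.

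Genes that assemble it had 27 lower, 1 higher and 2 not called of 30 (median -0.69). Gnl3, nucleostemin, fell from 97.2, 91.8 and 92.8 CPM to 29.1, 27.8 and 32.3 CPM (log2 -1.66), Utp20 by 1.25, Rrp12 by 1.21 and Ncl, nucleolin, by 0.67. The exception was Wdr12, which rose from 35.8 ± 1.51 to 116 ± 9.86 CPM. Ribosomal RNA itself could not be read as a level, since it was depleted before sequencing. Lars2, an abundant symbol that encodes the mitochondrial leucyl-tRNA synthetase, was at 4202, 6898 and 2804 CPM in naive and 22270, 6897 and 29340 CPM in rat tail collagen libraries. Its high libraries, rat tail collagen 1 and 3, were those with the highest ribosomal RNA share, and with rat tail collagen 2 as the only gel library the change was 0.60 (adjusted p = 0.368) in place of log2 2.08 (adjusted p = 0.0396). The call was also lost without naive 1 (0.147), naive 3 (0.125), rat tail collagen 1 (0.0952) or rat tail collagen 3 (0.11).

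Other genes of protein synthesis and turnover rose more often. Of 19 tested cytosolic aminoacyl-tRNA synthetases 11 were higher and 3 lower (median 0.285), among them Aars, which rose from 60.1 ± 4.32 to 185 ± 32 CPM, and Gars, from 97.9 ± 5.19 to 196 ± 26.7 CPM. Amino acid and unfolded protein response genes had 17 higher and 7 lower of 28 (median 0.519). Asns, asparagine synthetase, was at 0.735, 0.472 and 0.41 CPM in naive and 23, 21.7 and 30.9 CPM in rat tail collagen libraries (log2 5.55), with 24.5 ± 3.68 CPM in media and no call between those (adjusted p = 0.892). Sdf2l1 rose by log2 2.02, while Dnajb9, a chaperone partner in the endoplasmic reticulum, fell by 1.84. Proteasome subunits had 17 higher and 6 lower of 29 (median 0.31). Psma1 rose from 56.3 ± 1.48 to 124 ± 6.49 CPM, and the immunoproteasome gene Psmb10 fell from 91.8 ± 5.91 to 39.6 ± 3.29 CPM. Of 15 tested genes listed as amino acid transporters 9 were higher and 2 lower (median 0.694). Slc6a12 is among them and passed the filter only through rat tail collagen, so this count is not evidence for the list. Slc6a9, a glycine transporter, rose from 0.289, 0.341 and 0.289 CPM to 28.9, 30.1 and 33.9 CPM (log2 6.65). Slc43a3, a solute carrier gene on that list whose substrate was not read here, rose from 2.62 ± 0.15 to 79.2 ± 6.47 CPM.

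Genes that turn glucose into lactate mostly rose. Glycolysis and lactate genes had 17 higher, 4 lower and 3 not called of 24 (median 1.04). Slc16a3, the lactate exporter MCT4, was at 2.1, 2.31 and 1.78 CPM in naive and 32, 29.2 and 25.2 CPM in rat tail collagen libraries (log2 3.81). Hk2, hexokinase, rose from 8.13 ± 0.974 to 58.7 ± 5.05 CPM and Pkm, pyruvate kinase, from 342 ± 35.9 to 1405 ± 60.7 CPM (log2 2.04). Pdk1, which encodes a kinase that inhibits pyruvate dehydrogenase, fell from 252, 269 and 286 CPM to 52.1, 56.2 and 46.9 CPM (log2 -2.37). In media Pdk1 was at 259 ± 22.9 CPM, inside the naive range. Nuclear genes of oxidative phosphorylation changed by less than 2-fold throughout: 17 higher, 3 lower and 13 not called of 33, with a median of 0.209. Atp5j rose by log2 0.95 and Cox7a2 by log2 0.83. Of 13 mitochondrially encoded genes 2 were called higher, mt-Co1 (3255 ± 305 to 5133 ± 1080 CPM) and mt-Nd6 (116 ± 16.9 to 167 ± 23.8 CPM), and 11 were not called. These counts moved with the fit, to 10 higher and 0 lower with offsets for GC content and length and to 3 higher and 4 lower with the replicate number as a block. Sterol and fatty acid synthesis had 17 higher and 4 lower of 26 (median 0.601), with Sqle, squalene epoxidase, at log2 2.04 and the desaturase gene Scd2 at log2 1.92. One-carbon, serine and polyamine genes had 12 higher and 9 lower of 24 (median 0.2, and 0.121 without rat tail collagen 3), with Tyms, thymidylate synthase, at log2 2.87 and Psat1, an enzyme of serine synthesis, at log2 2.02.

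Genes of the NFAT5 and osmotic stress response included the gene with the largest rise, Slc6a12. NFAT5 is a transcription factor that induces transporters of organic osmolytes when the surroundings become hypertonic. Nfat5 itself was at 103, 98.1 and 78.9 CPM in naive and 648, 592 and 596 CPM in rat tail collagen libraries (log2 2.72). Slc5a3, the myo-inositol transporter, was at 24.2, 24.2 and 20.1 and 479, 395 and 336 CPM (log2 4.15), and Slc6a6, the taurine transporter, rose from 142 ± 5.92 to 434 ± 42.9 CPM. Rat tail collagen 1 was the highest library for Nfat5, Slc5a3 and Slc6a12, and all gel libraries were above all naive ones. Akr1b3, aldose reductase that makes sorbitol, rose from 53.2 ± 2.71 to 760.1 ± 227 CPM, Hspa4l from 24.6 ± 2.45 to 321 ± 55.1 CPM and Wnk1, a kinase of ion transport, from 498 ± 21.8 to 717 ± 49.6 CPM. Media cells held Nfat5 at 76.6 ± 12.1 CPM and Slc5a3 at 18.5 ± 2.33 CPM, and rat tail collagen was above media by log2 2.99 and log2 4.44.

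Altogether 11 of the 17 tested genes of that list were higher and 6 lower (median 1.03, and 0.645 without rat tail collagen 3). Slc6a12 passed the filter on low counts only through rat tail collagen and Aqp1 only through naive libraries. These counts are therefore not evidence for the list. The lower ones included Aqp1, a water channel of red cells and vessels, which was at 3.6, 1.26 and 0.555 CPM in naive 1 to 3 and without counts in rat tail collagen. They also included Hspa1a and Hspa1b, inducible HSP70 genes that are near-identical copies. Hspa1b was at 694, 1466 and 1573 CPM in naive 1 to 3 and 90.6, 67.1 and 71.6 CPM in rat tail collagen 1 to 3 (log2 -4.02), with 0.758 ± 0.117 CPM in media. Hspa1a showed the same order at 1014 ± 398, 54.5 ± 10.2 and 0.452 ± 0.0447 CPM. Naive cells were thus highest and the gel libraries stood between naive and media cells. Of 18 tested heat shock genes 5 were higher and 10 lower (median -0.384): Dnajb1, an HSP40, fell from 262, 387 and 407 CPM to 47.5, 48.5 and 49.9 CPM and the factor Hsf1 from 65.8 ± 3.54 to 23.8 ± 2.91 CPM, while Bag3 and Hspa4 rose by log2 2.43 and log2 1.69.

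Immediate early and AP-1 genes had 18 lower, 5 higher and 3 not called of 26 (median -1.04). Fos (chromosome 12, 85473890 to 85477273) was at 211, 335 and 445 CPM in naive and 2.57, 1.88 and 1.8 CPM in rat tail collagen libraries (log2 -7.32). Jun was at 419, 596 and 754 and 64.3, 73.6 and 104 CPM (log2 -2.86). The naive libraries were spread, with naive 1 the lowest for both genes, and all were above the gel libraries. Junb fell from 694 ± 134 to 73.5 ± 1.51 CPM, Egr1 from 60.3 ± 10.9 to 6.74 ± 0.443 CPM, Egr3 from 33.1 ± 4.63 to 3.43 ± 0.212 CPM, Ier2 from 178 ± 28.7 to 21.9 ± 0.921 CPM and Ier5 from 212 ± 15.4 to 65.4 ± 3.76 CPM. Fos and Jun, though lower than in naive cells, were higher than in media (log2 1.07 and log2 1.30), and Egr1 was lower (log2 -2.66). The sources used here do not say how long naive cells were handled before lysis, and its part was not tested.

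Regulators of quiescence and mRNA decay had 19 lower, none higher and 3 not called of 22 (median -0.884). Tsc22d3, which encodes the glucocorticoid-induced protein GILZ, was at 334, 316 and 470.3 CPM in naive and 26.2, 27 and 21 CPM in rat tail collagen libraries (log2 -3.91). Pik3ip1, an inhibitor of PI3 kinase, fell from 152 ± 15.1 to 31.1 ± 4.22 CPM, Txnip from 864 ± 47.8 to 271 ± 56 CPM, Klf13 from 545 ± 25.2 to 201 ± 9.54 CPM and Zfp36l1, which binds AU-rich RNA, from 211 ± 4.92 to 79.5 ± 9.85 CPM. Btg1, an antiproliferative gene, fell from 969.6 ± 39.1 to 568 ± 3.6 CPM while media cells were lower, at 369.5 ± 52.8 CPM (rat tail collagen against media log2 0.61). NF-kB and cytokine feedback genes had 8 higher and 11 lower of 20 (median -0.325): Cish, a target of STAT5, rose from 13.2 ± 0.553 to 145 ± 33.2 CPM and the NF-kB inhibitor genes Nfkbid and Nfkbia fell by 2.33 and 1.54. TGF-beta receptors, SMADs and feedback genes had 12 lower and 4 higher of 19 (median -0.724), with Tgfbr2 falling from 460 ± 23.5 to 139.7 ± 8.91 CPM and Smad3 from 97.9 ± 2.67 to 41.3 ± 0.312 CPM.

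Receptors for collagen and other matrix were mixed, 9 higher and 6 lower of 19 tested (median 0.421, and 0.737 without naive 1 or 0.633 without rat tail collagen 1). Itga4, a chain of the VLA-4 integrin, was at 414, 382 and 368 CPM in naive and 1213, 1192 and 998 CPM in rat tail collagen libraries (log2 1.55), and Itgb3 rose from 32.8 ± 3.96 to 207 ± 41.9 CPM (log2 2.67). Ddr1, a collagen-binding receptor kinase, rose from 6.47 ± 0.762 to 25.8 ± 1.71 CPM. Itga2, the CD49b chain that binds collagen, fell from 10.9, 8.53 and 7.38 CPM to 1.26, 1.07 and 1.17 CPM (log2 -2.94), and media cells were at 13.9 ± 0.86 CPM. Of 26 matrix and secreted glycoprotein genes 17 were tested, 14 higher and 3 lower (median 2.69). Lgals1 and Lgals3, galectins, rose from 58.4 ± 5.82 to 327 ± 11.6 CPM and from 4.37 ± 2.55 to 184 ± 54.2 CPM, and the metalloprotease gene Adam8 from 3.62 ± 0.214 to 84 ± 14.1 CPM. Spp1, osteopontin, rose from 0.131, 0 and 0.0482 CPM to 46.2, 34 and 21.5 CPM (log2 9.09, and 10.23 without naive 1). Several members passed the filter only through their level in rat tail collagen, so this count is not evidence for the list.

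Actin, myosin and intermediate filament genes had 27 lower and 8 higher of 40 (median -0.464). Actb was at 8346, 8887 and 10380 CPM in naive and 5693, 5518 and 5744 CPM in rat tail collagen libraries (log2 -0.70), and Myh9, non-muscle myosin, fell from 3789 ± 340 to 1876 ± 40.9 CPM. Capg, which caps actin, and Stmn1, which binds tubulin, rose by log2 3.42 and log2 3.65, and the lamin genes Lmna and Lmnb1 by log2 2.27 and log2 1.52. Genes of mechanosensitive channels and of YAP, TAZ, SRF and MRTF targets had 13 higher and 9 lower of 24 tested (median 0.998). The median was 1.75, 1.52 and 1.51 without naive 1, 2 and 3, and 0.381 in the joint fit of 12 libraries. Kcnk5, a potassium channel, rose from 3.36, 1.68 and 2.94 CPM to 132, 123 and 135 CPM (log2 5.61), and Mical2, an actin oxidase that acts on MRTF, from 2.92 ± 0.495 to 89 ± 18.1 CPM. Arhgef17 rose by log2 5.46, while Mrtfa itself and the actin crosslinker gene Flna fell by 1.34 and 1.57. The channel gene Piezo1 was at 122, 123 and 126 CPM in naive and 100, 105 and 120.1 CPM in rat tail collagen libraries. Its change was log2 -0.19 (adjusted p = 0.0497), and it was not called without any of naive 1, 2 or 3 or rat tail collagen 1 or 2 taken singly (adjusted p = 0.0641 to 0.234).

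Survival genes had 11 higher and 7 lower of 21 tested (median 0.308). Bcl2l1, which encodes BCL-XL, rose from 23.9 ± 1.14 to 91.2 ± 10.6 CPM, and the proapoptotic genes Bcl2l11 (BIM) and Bmf from 72.8 ± 3.51 to 186 ± 16.5 CPM and from 12.2, 9.87 and 11.2 CPM to 87.9, 91.2 and 115 CPM (log2 3.15). The initiator caspase gene Casp8 fell by 1.08 and the survival gene Mcl1 by 0.85. Bcl2l11, Bmf and Bcl2l1 were also above media (log2 1.28, log2 1.89 and log2 1.22), where Bcl2l11 was at 76.3 ± 20.1 CPM. Of 23 p53 targets and CDK inhibitors 15 were higher and 5 lower (median 0.781). Cdkn1a, which encodes the CDK inhibitor p21, was at 0.866, 1.97 and 1.21 CPM in naive and 79.3, 79.3 and 96.4 CPM in rat tail collagen libraries (log2 5.98), above media as well (26.2 ± 3.47 CPM, log2 1.69). Phlda3 and Zmat3 rose by log2 3.48 and log2 1.66, and Cdkn1b, which encodes p27, fell by 0.87.

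**Figure D5:**
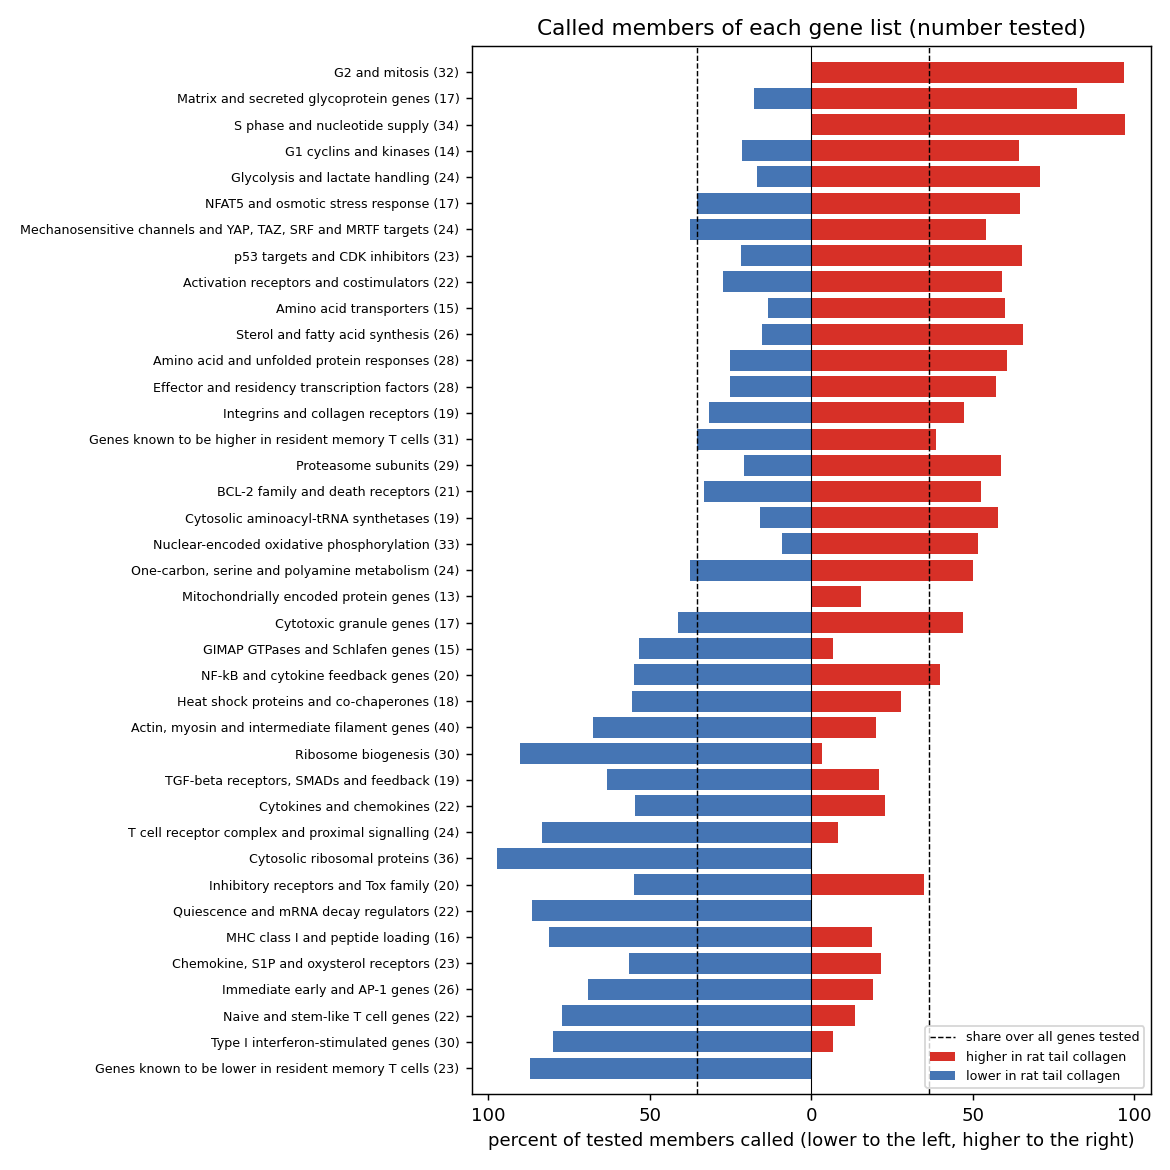
Bars give, for each list with the number of tested members in parentheses, the percent called higher in rat tail collagen (red, to the right) and called lower (blue, to the left), and dashed lines give the same shares over all genes tested, 36.5% and 35.4%. G2 and mitosis, S phase and matrix genes reach furthest to the right, ribosomal proteins and ribosome biogenesis furthest to the left. Several matrix members passed the filter only through rat tail collagen, so that bar is not evidence for the list.

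Malat1, a nuclear non-coding RNA, rose and was at 8452, 8404 and 6924 CPM in naive and 14060, 13000 and 11300 CPM in rat tail collagen libraries (log2 0.69). Media cells were far below both at 2522 ± 609 CPM, so the order of the groups was rat tail collagen, naive and media. By class of gene, 41.4% of 12998 protein-coding genes were higher and 35.7% lower. Of 541 lincRNA genes 42.5% were higher and 26.4% lower, and of 76 small nuclear RNA genes 59.2% were higher and 9.21% lower. Of 56 genes annotated as ribosomal RNA 92.9% were called higher, which goes with the ribosomal RNA shares of rat tail collagen 1 and 3 given above, and its part in the other changes was not tested. Many genes named here overlap another annotated gene on the opposite strand, among them Itgae, Cxcr6, Csf1r, Rack1, Piezo1, Gnl3, Itga4, B2m, Junb, Cdc20, Tcf7, Il6ra, Lef1, Mki67 and Malat1, so part of their counts could come from it. Slc5a3 lies on the same strand as Mrps6, and Itga1 as Pelo, with shared bases.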

How the data were processed

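RNA of 3 naive and 3 rat tail collagen libraries was DNase-treated and depleted of ribosomal RNA, per the labels. The authors deposited raw read counts per gene symbol, made with HISAT2 and featureCounts on GRCm38 per the submitters' processing notes; versions, strand setting and annotation release are unknown here. The deposited counts were fitted with edgeR 4.0.16 in R 4.3.3 (quasi-likelihood test, robust, TMM factors, filterByExpr) over the 6 libraries, and a second fit over the 9 day 4 libraries gave the comparison with media. The Benjamini-Hochberg adjustment ran over every gene of a fit, with calls at 0.05. CPM use TMM factors of the 12 libraries. The method was tested on simulated counts in which 67, 67 and 66 of 19449 genes were changed 4-fold, 2-fold and 1.5-fold. Of these 97%, 65.7% and 42.4% were called in the right direction, and 5.52% of all calls were false. Far more genes were called in the real comparison, so the simulation does not cover that state. Every adjusted p in the text is from these fits or, where named, from DESeq2 1.42.0 or an alternative fit.

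Named genes are the 12 largest rises and 12 largest falls with 5 CPM or more in a group, at least 2 per list (from those with the smallest adjusted p or highest CPM), 28 fixed genes and the 12 called genes with the highest CPM. Some genes under this rule are not reported here. Akr1b3, Aqp1, C1qa, Cd28, Gzma, Gzmc, Spp1 and Trac fall outside this rule and were chosen after their values were seen, as were Col1a2 and Lum. The comparison and its 44 gene lists were chosen with earlier results of these data known. Coordinates and gene classes are GENCODE M21 on GRCm38, and promoters are RefSeq's.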

Additional observations from a re-analysis of the deposited data

How the results depend on the processing

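Genes called numbered 13332 to 14517 under other scalings (RLE, upper quartile, library totals), DESeq2, limma-voom, a joint fit of 12 libraries, no robust estimation, removed ribosomal RNA genes and offsets for GC content and length. They numbered 15608 without a filter, 11924 at 1 CPM in 3 libraries, 12891 to 14053 with 1 library left out and 11327 without rat tail collagen 1 and 3, which leaves 1 gel library that is assumed to vary like the naive ones. None of these scalings moved the median of all genes by over 0.1. Each of them sets levels relative to the library, so this median cannot show a change in RNA per cell shared by all genes. Against media, 11239 and 11094 genes were called with RLE factors and with only the 6 libraries. Of 4289 pairs of a named gene and an alternative, 4201 kept direction and side of the threshold, 67 lost the call, 17 gained it and 4 changed sign, all of Tcf7: -0.031 without naive 1, -0.047 without naive 2, -0.002 without rat tail collagen 3 and -0.086 with offsets for GC content and length. Leaving out 1 library at a time gave Tcf7 -0.047 to 0.12. The cause was not tested. Lars2, Piezo1, Ccr7 and the macrophage, red cell and B cell genes account for most lost calls.

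With the replicate number as a block 14321 genes were called (7263 higher, 7058 lower). Deviations of same-numbered naive and rat tail collagen libraries correlated at 0.152, 0.0476 and 0.137, other pairs at -0.136 to 0.0118, and each library correlated best with its own number; since not every pair passed 0.1, the numbers were not taken as a pairing. The block ended the call for Lars2 (adjusted p = 0.225) and gained Cd4 (0.0208), Itga1 (0.0399), Myc (0.0382) and C1qa (1e-06).

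Without a filter the medians were 0.627 for matrix genes, 0.234 for mechanosensing genes, -0.453 for cytokines and 0.911 for cytotoxic genes, since low genes enter. Of 26 matrix genes 7 were then lower. With offsets for GC content and length, medians were -0.642 for NF-kB genes, 0.679 for osmotic genes and 0.155 for survival genes, and 7 of 26 sterol genes were lower. Members below the filter cannot be read at this depth.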
